A study of Mus musculus with 9 samples.

Results

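In cultured mouse bone marrow cells, 27 genes were highest in cells transduced with NUP98-NSD1 alone and lower both in cells transduced with NRASG12D and in cells transduced with both. They were chosen from their own levels in 9 RNA-seq libraries. A gene entered if its FPKM, its fragments scaled for transcript length and library size, reached 1 or more in 3 or more of these libraries. The mean of log2(FPKM + 1) in NUP98-NSD1 had to be at least 1 above the mean of each other group, and the lowest NUP98-NSD1 library had to lie above all 6 others. Of 55274 gene identifiers, 13493 passed the filter on low values and 44 had the pattern. Names starting with Gm, Mir, Hox, Slc, Rab, Mcpt, Cma, Cpa3, Hdc, Egr, Fos, Axin2 or Fermt2 were set aside, which removed 17 and left the 27. The same rule, with the same names set aside, found 194 genes highest in NRASG12D alone and 584 highest in NUP98-NSD1+NRASG12D alone. Its mirror image found 2 genes lowest in NUP98-NSD1 alone.

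The study profiled bone marrow of female C57BL/6J mice aged 6 to 8 weeks that had received 5-fluorouracil at 150 mg/kg 4 days before harvest, a treatment that removes dividing cells. The cells were stimulated for 48 h with 10 ng/ml interleukin-6, 6 ng/ml interleukin-3 and 20 ng/ml stem cell factor, and all 3 groups then carried a retrovirus. NUP98-NSD1 was expressed from MSCV-IRES-GFP and NRASG12D from MSCV-IRES-BFP, and NUP98-NSD1+NRASG12D cells carried both vectors. Cells were sorted by fluorochrome and expanded before RNA was isolated, with 3 libraries per group. NUP98-NSD1 is a leukaemia fusion of a nucleoporin with an enzyme that methylates histone H3, and NRASG12D is a mutant RAS that stays switched on. The study describes expression of the fusion from the retroviral promoter as strong and constitutive, and no untransduced or empty-vector cells were analysed here. By the study's description the NRASG12D cells were mostly mast cells. It also reports a higher proportion of immature myeloid cells in NUP98-NSD1+NRASG12D than in NUP98-NSD1 cells. By this description the groups also differ in cell type. The labels number the libraries 1 to 3 but do not say whether they came from separate cultures or mice, so p-values measure the spread between these libraries, which may be technical.

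The genes fall into 4 roles. Immediate-early and rapidly induced genes are switched on within minutes of a growth factor, cytokine or stress signal, without new protein synthesis. Their products include AP-1 transcription factors and proteins that shut the signal off again, such as phosphatases of MAP kinases, RNA decay factors and inhibitors of NF-kB. A second role comprises genes of blood lineages, among them the alpha-globins, which fill red blood cells with haemoglobin, and a transcription factor of blood stem cells. Receptors and other surface proteins form the third role, and the fourth holds 7 genes of unrelated functions. The roles were assigned from gene function after the genes were known.

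Library depth, estimated from the smallest steps between low values, ranged from 23100000 to 37100000 fragments. As a check of the labels, Nras stood at 348 to 479 FPKM in NRASG12D, at 47.7 to 51.2 in NUP98-NSD1 and at 245, 262 and 701 in NUP98-NSD1+NRASG12D. The partner genes of the fusion differed less, with Nup98 at 9.12 to 11.1, 18.2 to 19.03 and 11.9 to 20.2 FPKM and Nsd1 at 11.7 to 14.7, 10.8 to 16.2 and 9.98 to 16.2 FPKM in the same order, so that Nsd1 overlapped between all groups. The sum of the 16 mast cell markers ran from 38146 to 40341 FPKM in NRASG12D cells and from 30573 to 36954 in NUP98-NSD1 cells, and was 1705, 6076 and 2278 in replicates 1, 2 and 3 of NUP98-NSD1+NRASG12D. Among these markers Cpa3 was listed at 0 in all 3 NRASG12D libraries, where Kit, another mast cell gene, stood at 982, 1119 and 1049 FPKM. A listed 0 can be a failed estimate, and without Cpa3 the sums of NUP98-NSD1 were 17160 to 22575 FPKM. The 15 neutrophil markers summed to 30.3 to 41.1, 1892 to 6335 and 9563 to 20676 FPKM, and the 12 monocyte or macrophage markers to 66.0 to 72.0, 538 to 1008 and 1856 to 4629 FPKM, in the same order of groups. The 8 basophil markers summed to 463 to 502, 1075 to 1953 and 357 to 1010 FPKM in this order, so their sum was highest in NUP98-NSD1. One of them, Mcpt8, had the numeric pattern and was set aside by name, with a mean of 752 FPKM in NUP98-NSD1. In bulk RNA, fewer cells of a type and less RNA per cell cannot be told apart, and the part of cell composition in the levels below was not tested. Replicate 3 of NUP98-NSD1+NRASG12D stood apart with the highest Nras level. It also had the lowest value of its group in 16 of the 27 genes, against 34.1% of all tested genes. A low library lowers the group mean that the rule used, so this count depends in part on the choice of genes.

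**Figure D1:**
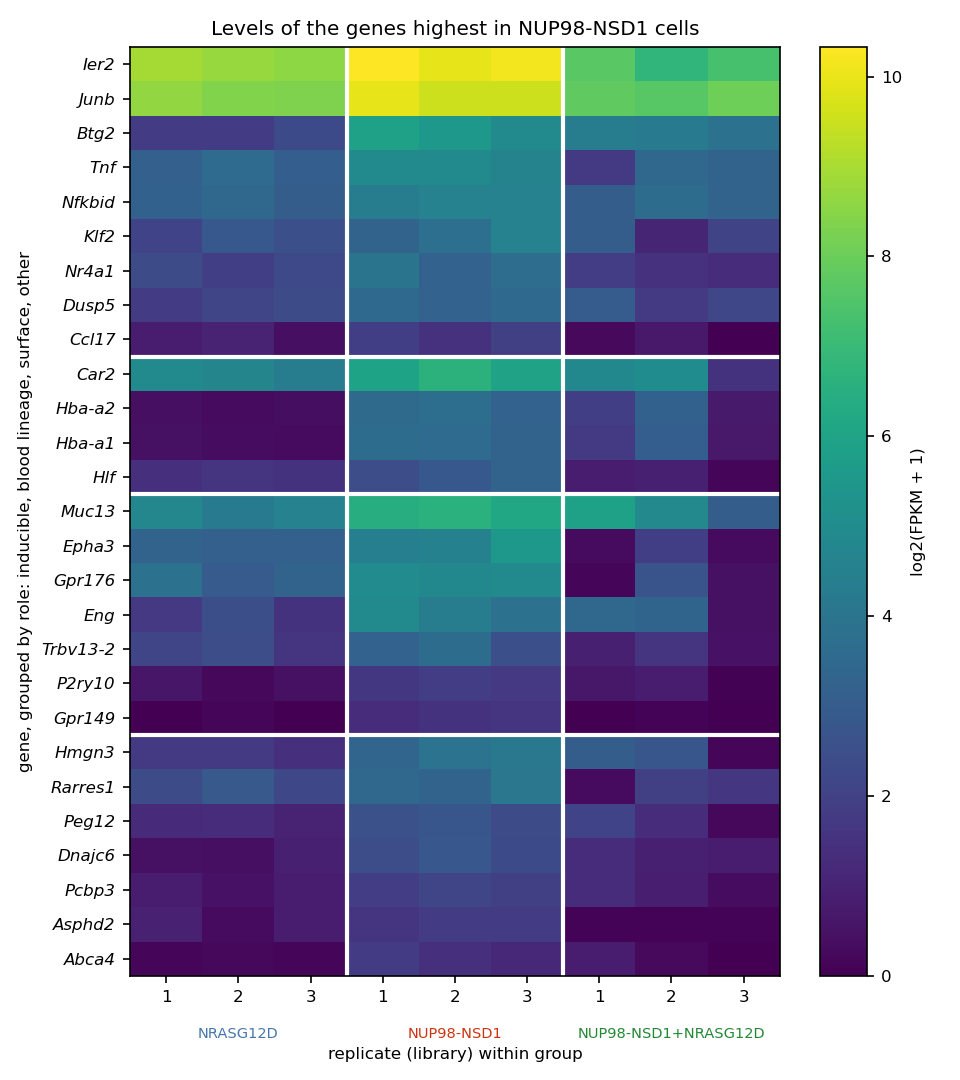
Level of each of the 27 genes, as log2(FPKM + 1), in the 9 libraries. Rows are genes grouped by role and ordered by their mean FPKM in NUP98-NSD1, columns are replicates 1 to 3 of each group, and white lines separate groups and roles. The NUP98-NSD1 columns are the highest in every row, as the choice of genes requires, and Ier2 and Junb have the highest levels.

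In the heatmap of the 27 genes, the group with the lowest mean varied by row. In some rows, such as Hba-a1, Hba-a2 and Btg2, NRASG12D held it. In others, such as Epha3, Gpr176, Rarres1 and Asphd2, NUP98-NSD1+NRASG12D did. The libraries of these 2 groups did not overlap in 11 of the 27 genes, against 58.6% of all tested genes. They overlapped in the rest, such as Muc13, Nfkbid and Abca4. The mean of NUP98-NSD1+NRASG12D on the log2(FPKM + 1) scale lay above that of NRASG12D in 13 of the 27 genes and below it in 14. Over the 27 genes, the median difference on this scale was 1.39 between NUP98-NSD1 and NRASG12D and 1.80 between NUP98-NSD1 and NUP98-NSD1+NRASG12D, where all tested genes had medians of 0.27 and 0.06. These differences chose the genes and were not tested.

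**Figure D2:**
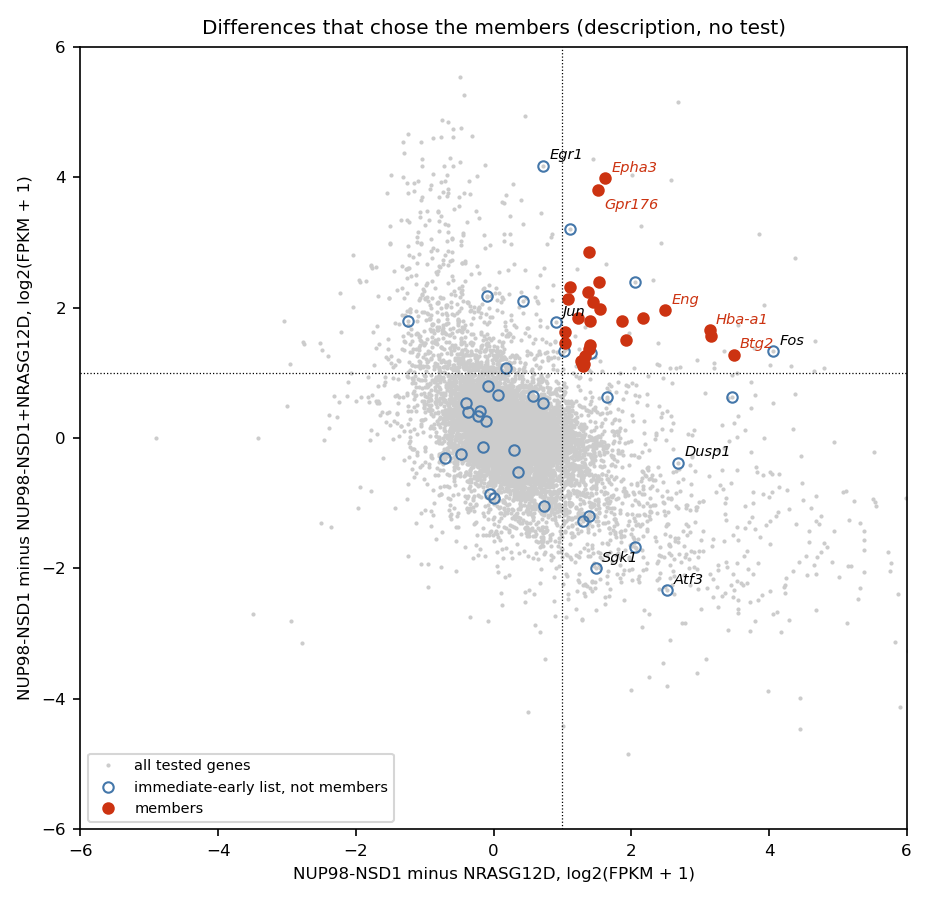
Difference of means on the log2(FPKM + 1) scale between NUP98-NSD1 and NRASG12D on the x axis and between NUP98-NSD1 and NUP98-NSD1+NRASG12D on the y axis, for the 13493 tested genes in grey, the 27 chosen genes in red and other genes of the immediate-early list as open circles. Dotted lines mark the threshold of 1, and 18 genes lie beyond the axes, which end at 6. Egr1 and Epha3 lie high on the y axis, Fos and Btg2 far to the right, and Atf3, Sgk1 and Dusp1 below 0 on the y axis.

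Inducible genes made up 9 of the 27, of which 8 were immediate-early or rapidly induced and the other was the chemokine gene Ccl17. Ier2 (ENSMUSG00000053560.5, chr8:84661331-84662854), a nuclear immediate-early protein, reached 1286, 986 and 1130 FPKM in NUP98-NSD1. NRASG12D had 489, 431 and 378 FPKM and NUP98-NSD1+NRASG12D had 205, 112 and 161 FPKM of Ier2. The 3 groups did not overlap, and the mean of NUP98-NSD1 was 2.62 times that of NRASG12D and 7.12 times that of NUP98-NSD1+NRASG12D. Junb (ENSMUSG00000052837.6, chr8:84974484-84976542), a subunit of the AP-1 transcription factor, showed the same order of groups at 996, 748 and 744 FPKM in NUP98-NSD1. Its NRASG12D libraries had 399, 334 and 322 FPKM and its NUP98-NSD1+NRASG12D libraries 225, 202 and 262 FPKM. Ier2 and Junb lie 311630 bp apart on chromosome 8. Junb overlaps Prdx2 on the other strand and shares 5.76% of its stretches of 50 bases with it.

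Btg2 (ENSMUSG00000020423.6, chr1:134075170-134079120), an antiproliferative protein that speeds the removal of poly(A) tails from mRNA, had another order. It stood at 58.6, 45.1 and 30.04 FPKM in NUP98-NSD1, at 19.2, 18.6 and 14.0 in NUP98-NSD1+NRASG12D and at 2.51, 2.43 and 4.02 in NRASG12D. NUP98-NSD1+NRASG12D therefore lay between the other groups, and no libraries of different groups overlapped. The NUP98-NSD1 mean of Btg2 was 14.9 times the NRASG12D mean and 2.58 times the NUP98-NSD1+NRASG12D mean.

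Tnf (chr17:35199381-35202007), an inflammatory cytokine, had 28.96, 29.7 and 23.9 FPKM in NUP98-NSD1. The NRASG12D libraries had 7.99, 11.1 and 7.48 FPKM of it and the NUP98-NSD1+NRASG12D libraries 2.37, 10.2 and 8.83 FPKM, so the lower groups overlapped. Nfkbid (chr7:30421732-30428746), a nuclear member of the family of NF-kB inhibitors, varied least of these genes among the NUP98-NSD1 libraries, at 19.2, 22.99 and 22.97 FPKM. Its lower groups overlapped as well, at 8.23, 10.0 and 7.23 FPKM in NRASG12D and 7.22, 11.4 and 8.73 FPKM in NUP98-NSD1+NRASG12D. For both genes, the replicates of the lower groups could not be separated by group. Of 15 TNF superfamily ligands 9 were tested, and Tnf, Tnfsf9 and Tnfsf10 had all NUP98-NSD1 libraries above the 6 others.

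Nr4a1 (chr15:101254269-101274795), an orphan nuclear receptor, stood at 14.8, 8.46 and 12.0 FPKM in NUP98-NSD1, 4.30, 2.77 and 3.86 FPKM in NRASG12D and 2.72, 1.78 and 1.48 FPKM in NUP98-NSD1+NRASG12D. Dusp5 (chr19:53529109-53542431), a nuclear phosphatase that removes phosphate from ERK, had 10.4, 8.56 and 10.7 FPKM in NUP98-NSD1. Its NRASG12D libraries had 2.55, 3.48 and 4.25 FPKM and its NUP98-NSD1+NRASG12D libraries 6.98, 2.35 and 3.54 FPKM. An antisense gene, AC137853.2, covers 20.5% of the stretches of 50 bases of Dusp5, and reads of the 2 strands cannot be told apart where strand was not counted. Klf2 (chr8:72319033-72321656), a zinc finger transcription factor, varied most among the NUP98-NSD1 libraries of these 9 genes. It had 8.68, 12.6 and 23.04 FPKM there, against 3.23, 6.13 and 4.78 FPKM in NRASG12D and 7.34, 1.09 and 3.32 FPKM in NUP98-NSD1+NRASG12D. Ccl17 (chr8:94810453-94812036), a chemokine, had the lowest level of the 9, at 2.77, 1.79 and 2.84 FPKM in NUP98-NSD1 and below 1 in all 6 other libraries. It was listed at 0 in NUP98-NSD1+NRASG12D replicate 3, and 2 of the 9 libraries were at or under the level that 3 fragments give.

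**Figure D3:**
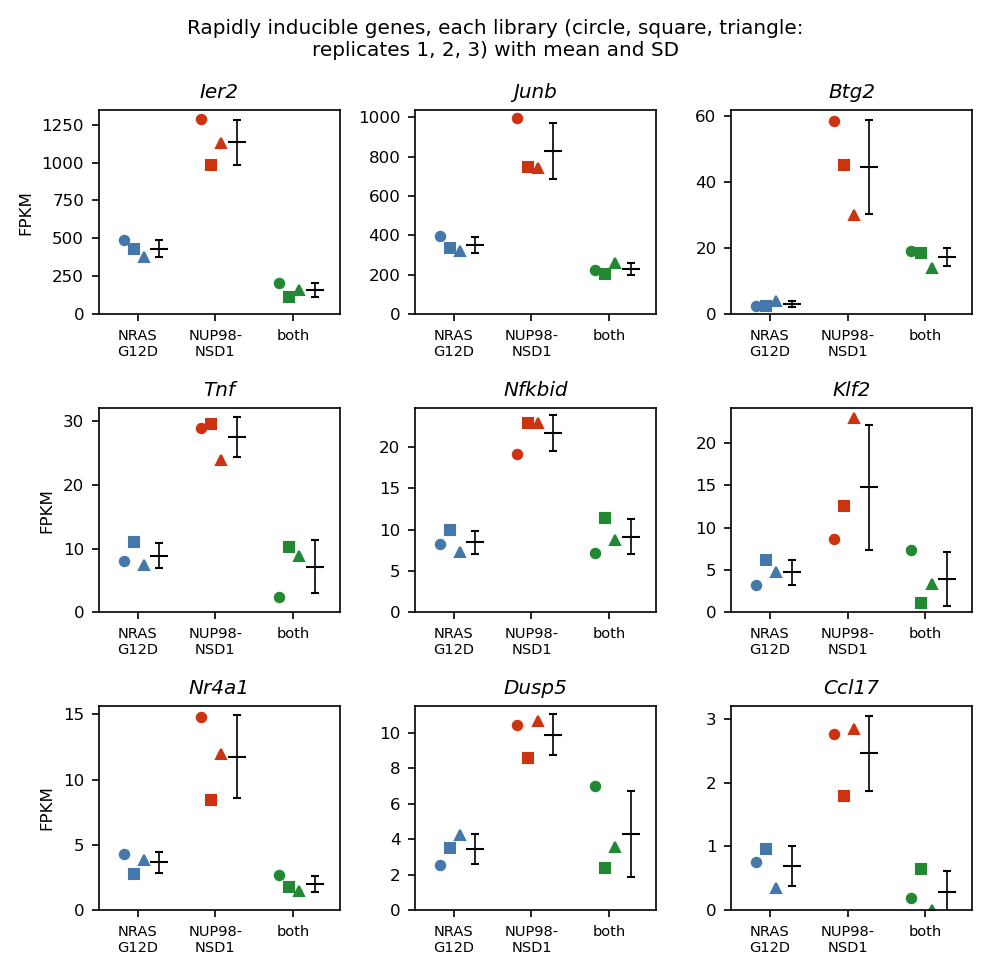
FPKM on a linear axis from 0 of the 9 inducible genes in cells with NUP98-NSD1, with NRASG12D or with both. Circles, squares and triangles are replicates 1, 2 and 3, and the black bar gives the mean with the SD of 3 libraries. In Btg2 the cells with both vectors lie between the other groups, in Ier2, Junb and Nr4a1 they lie lowest, and in Tnf, Nfkbid, Klf2, Dusp5 and Ccl17 they overlap NRASG12D.

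The sequences before a start of 4 of these genes are shown because they differ in the motifs they hold, with response elements in Btg2, Nr4a1 and Dusp5 and the core promoter motif TATAAA in Tnf. They are the RefSeq promoters on GRCm38.p6, written 5′ to 3′ on the strand of the gene, without bases in exons of protein-coding genes. Capitals mark CCAAT and TGACGTCA (the cyclic AMP response element) in Btg2, TGCGTCA (a variant of it) in Nr4a1, 2 adjoining serum response elements, or CArG boxes, in Dusp5, and TATAAA in Tnf. Their positions are chr1:134079156-134079405 (minus strand) for Btg2, chr15:101266596-101266845 (plus strand) for Nr4a1, which lies inside the span of the gene and precedes an internal start that RefSeq gives, chr19:53528895-53529108 (plus strand) for Dusp5 and chr17:35202008-35202257 (minus strand) for Tnf.
Btg2: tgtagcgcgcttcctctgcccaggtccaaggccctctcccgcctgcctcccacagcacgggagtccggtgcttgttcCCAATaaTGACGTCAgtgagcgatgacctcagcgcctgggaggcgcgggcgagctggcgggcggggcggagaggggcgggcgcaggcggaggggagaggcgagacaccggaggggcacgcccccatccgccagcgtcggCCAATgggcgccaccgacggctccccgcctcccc
Nr4a1: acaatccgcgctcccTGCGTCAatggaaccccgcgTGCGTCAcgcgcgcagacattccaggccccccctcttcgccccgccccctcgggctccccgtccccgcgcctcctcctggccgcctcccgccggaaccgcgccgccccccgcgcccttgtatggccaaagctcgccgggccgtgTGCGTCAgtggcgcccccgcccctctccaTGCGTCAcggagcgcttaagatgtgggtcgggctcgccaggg
Dusp5: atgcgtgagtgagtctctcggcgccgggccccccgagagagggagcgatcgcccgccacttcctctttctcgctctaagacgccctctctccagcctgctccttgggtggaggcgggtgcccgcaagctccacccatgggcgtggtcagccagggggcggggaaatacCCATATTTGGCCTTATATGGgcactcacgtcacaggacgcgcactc
Tnf: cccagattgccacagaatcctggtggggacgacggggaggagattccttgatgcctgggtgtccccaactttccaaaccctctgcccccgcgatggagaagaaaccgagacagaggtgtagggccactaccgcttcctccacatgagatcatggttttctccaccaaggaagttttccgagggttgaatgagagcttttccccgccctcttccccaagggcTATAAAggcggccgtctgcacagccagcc

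The CArG boxes of Dusp5 lay 82 to 73 and 72 to 63 bases before its start, and TGACGTCA of Btg2 lay 166 to 159 bases before its start. Nr4a1 held TGCGTCA at 4 places within the 250 bases before this internal start. Promoters of 300 bases, 250 before and 50 after the start, were found for 21 of the 27 genes and for 9000 tested genes, and motifs were searched on both strands. A CArG box was present in 1 of the 21 promoters and in 1.24% of the 9000, TGACGTCA in 2 of the 21, Btg2 and Hlf, and in 3.3%, and TGCGTCA in 1 of the 21 and in 4.09%. GGGCGG was present in 10 of the 21 and in 64.2% of the 9000, CCAAT in 4 of the 21 and in 39.7%, and CCGGAAG in 0 of the 21 and in 20.1%. TATAAA was present in 3 of the 21 and in 6.91%, AGATAA in 3 of the 21 and in 6.6%, and GAGGAAG in 5 of the 21 and in 13.7%. CACGTG was present in 0 of the 21 and in 10.5%, TCACATG in 1 of the 21 and in 2.32%, CAGCTG in 3 of the 21 and in 13.8%, TGAGTCA in 1 of the 21 and in 3.57%, and TGTGGT in 4 of the 21 and in 13.1%. The mean GC content was 60.2% in the 21 promoters and 60.5% in the 9000.

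Rapidly induced genes outside the 27 did not share 1 order of groups. A list of 47 such genes, drawn up after the 27 were known, held 44 tested genes, 8 of them among the 27. In 16 of the 44 the lowest NUP98-NSD1 library lay above all 6 others, a pattern that 3.63% of all tested genes had and on which the 8 were chosen. The other 8 were Jun, which missed the threshold with a margin of 0.91, Egr1, Ppp1r15a, and Fos, Fosb, Egr2, Egr3 and Egr4. Fos, Fosb, Egr2, Egr3 and Egr4 met the numeric rule and were set aside by name. The values that chose the genes thus also gave most of the 16, so the count is a description and was not tested. Fos, the partner of the JUN proteins in AP-1, stood at 190, 133 and 97.8 FPKM in NUP98-NSD1, 73.4, 52.0 and 39.1 FPKM in NUP98-NSD1+NRASG12D and 9.14, 7.85 and 5.03 FPKM in NRASG12D, the same order of groups as Btg2. Egr1, a zinc finger transcription factor, stood at 496, 379 and 552 FPKM in NUP98-NSD1, 324, 279 and 257 FPKM in NRASG12D and 17.0, 34.5 and 26.4 FPKM in NUP98-NSD1+NRASG12D, the same order as Ier2. Other genes of the list had their highest mean in NUP98-NSD1+NRASG12D. Among these, Atf3, a stress-induced transcription factor, had 6.69, 6.57 and 7.95 FPKM in NUP98-NSD1 and 39.5, 58.2 and 27.004 FPKM in NUP98-NSD1+NRASG12D. Nfkbia, the classical inhibitor of NF-kB, had 87.5, 66.3 and 36.3 FPKM in NUP98-NSD1 and 100.3, 176 and 402 FPKM in NUP98-NSD1+NRASG12D, in contrast to Nfkbid.

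Blood lineage genes made up 4 of the 27. The alpha-globin genes Hba-a1 (ENSMUSG00000069919.7, chr11:32283511-32284465) and Hba-a2 (ENSMUSG00000069917.7, chr11:32296489-32297298) lie 12024 bp apart. Hba-a1 stood at 11.5, 11.2 and 8.81 FPKM in NUP98-NSD1, at 0.397, 0.272 and 0.232 FPKM in NRASG12D and at 2.39, 7.50 and 0.652 FPKM in NUP98-NSD1+NRASG12D. Hba-a2 had 11.02, 12.4 and 8.59, 0.343, 0.234 and 0.316, and 2.81, 8.34 and 0.666 FPKM in the same order. Every NRASG12D library lay below every library of the other groups for both genes. The transcripts of Hba-a1 share 72.3% of their stretches of 50 bases with Hba-a2 and those of Hba-a2 share 89.3% with Hba-a1, so their values are uncertain as separate measurements. The promoter of Hba-a2 is shown as that of a lineage gene, at chr11:32296242-32296488 (plus strand), with CCAAT in capitals.
Hba-a2: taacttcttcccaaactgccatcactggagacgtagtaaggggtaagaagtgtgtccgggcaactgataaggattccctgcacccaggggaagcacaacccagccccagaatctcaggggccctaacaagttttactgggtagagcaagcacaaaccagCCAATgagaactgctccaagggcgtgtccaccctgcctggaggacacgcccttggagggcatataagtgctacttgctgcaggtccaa

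The beta-globin genes had a like pattern without meeting the rule. Hbb-bs stood at 20.1, 32.8 and 10.9 FPKM in NUP98-NSD1, 0.751, 2.17 and 0.963 FPKM in NRASG12D and 11.5, 21.1 and 1.86 FPKM in NUP98-NSD1+NRASG12D, so that 2 of the last 3 libraries overlapped NUP98-NSD1. Several other erythroid markers were low. Among them, Alas2 and Car1 were below 1 FPKM in all 9 libraries, and Klf1, the master regulator of globin transcription, had 1.20, 2.99 and 1.41 FPKM in NUP98-NSD1 and at most 0.663 elsewhere. The 10 listed erythroid markers summed to 113 to 121 FPKM in NRASG12D cells, to 127 to 179 FPKM in NUP98-NSD1 cells and to 36.0, 80.9 and 7.59 FPKM in NUP98-NSD1+NRASG12D, and Gata1, which mast cells also express, supplied most of the sum in NRASG12D. The part of erythroid cells in the globin levels was not tested.

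Car2 (chr3:14886273-14900770), a carbonic anhydrase that interconverts carbon dioxide and bicarbonate, was the most abundant lineage gene at 62.5, 98.6 and 60.7 FPKM in NUP98-NSD1. It stood at 29.1, 25.3 and 19.3 FPKM in NRASG12D and at 27.5, 31.6 and 1.86 FPKM in NUP98-NSD1+NRASG12D, where replicate 3 was far below the others. Of 14 carbonic anhydrases, 7 were tested and Car2 was the only one with all NUP98-NSD1 libraries above the 6 others. Hlf (chr11:90336536-90390895), a transcription factor of blood stem cells, had 4.40, 6.18 and 8.75 FPKM in NUP98-NSD1, 1.64, 1.97 and 1.83 FPKM in NRASG12D and 0.758, 0.874 and 0.0900 FPKM in NUP98-NSD1+NRASG12D. The 3 groups of Hlf did not overlap. Among the 10 stem or progenitor markers, Cd34 was the other gene with this pattern, at 400.1, 431 and 492 FPKM in NUP98-NSD1, 307, 333 and 341 FPKM in NRASG12D and 117, 72.9 and 9.53 FPKM in NUP98-NSD1+NRASG12D. The 10 markers together did not follow it, with sums of 1867 to 2281 FPKM in NRASG12D cells, 968 to 1582 FPKM in NUP98-NSD1 cells and 203 to 877 FPKM in cells with both vectors. Meis1 and Mecom, further stem cell transcription factors, overlapped between NUP98-NSD1 and NRASG12D.

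Surface proteins and receptors made up 7 of the 27. Muc13 (chr16:33794037-33819934), a transmembrane mucin, was the most abundant at 86.6, 95.4 and 69.6 FPKM in NUP98-NSD1. Its level in NUP98-NSD1+NRASG12D spread over 58.7, 28.1 and 7.18 FPKM, on both sides of the 26.1, 18.04 and 22.8 FPKM of NRASG12D. Muc13 shares 5.2% of its stretches of 50 bases with the antisense gene Gm15657. Eng (ENSMUSG00000026814.16, chr2:32646595-32682669), endoglin, a co-receptor for TGF-beta and BMP ligands, stood at 29.98, 19.3 and 13.5 FPKM in NUP98-NSD1 and at 2.29, 4.51 and 1.85 FPKM in NRASG12D. In NUP98-NSD1+NRASG12D it had 10.4, 8.92 and 0.366 FPKM, so that replicate 3 lay below all NRASG12D libraries and the other replicates above them. Of 12 TGF-beta and BMP receptors, 7 were tested, and Eng was the only one with all NUP98-NSD1 libraries above the rest. The signalling receptors Tgfbr1 and Tgfbr2 were highest in NRASG12D.

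Epha3 (ENSMUSG00000052504.7, chr16:63543534-63864175), a receptor tyrosine kinase for ephrin-A ligands, had 20.8, 22.2 and 44.6 FPKM in NUP98-NSD1 and 8.75, 7.93 and 8.07 FPKM in NRASG12D. The NUP98-NSD1+NRASG12D libraries had 0.232, 2.78 and 0.248 FPKM. The mean of NUP98-NSD1 was 3.54 times that of NRASG12D and 26.9 times that of NUP98-NSD1+NRASG12D. Gpr176 (chr2:118277110-118373419), an orphan G protein-coupled receptor, showed the same order, with 30.9, 27.1 and 28.6 FPKM in NUP98-NSD1, 13.5, 6.83 and 8.88 FPKM in NRASG12D and 0.0904, 5.46 and 0.390 FPKM in NUP98-NSD1+NRASG12D. In both genes replicate 2 was the highest NUP98-NSD1+NRASG12D library and replicate 1 the lowest, as in the sum of the mast cell markers, and the part of mast cells in this was not tested. Of 12 Eph receptors, 9 were below 1 FPKM in every library, and Epha3 was the only one with NUP98-NSD1 above all others.

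Gpr149 (chr3:62529077-62605140), another orphan receptor, was close to undetected outside NUP98-NSD1. It had 1.503, 1.83 and 1.94 FPKM there, 0.00976, 0.0958 and 0.0104 FPKM in NRASG12D and 0.0658 FPKM in replicate 2 of NUP98-NSD1+NRASG12D, with the other 2 replicates listed at 0. The level that 3 fragments give was passed in 2 of these 6 libraries, so no fold is given. P2ry10 (chrX:107088492-107104974), a receptor for lysophospholipids, had 2.15, 2.72 and 2.29 FPKM in NUP98-NSD1 and below 1 FPKM in the 6 other libraries. Trbv13-2 (chr6:41121396-41121832), a variable segment of the T cell receptor beta chain, stood at 8.54, 11.6 and 4.80 FPKM in NUP98-NSD1, 3.51, 4.38 and 2.01 FPKM in NRASG12D and 0.888, 2.06 and 0.429 FPKM in NUP98-NSD1+NRASG12D. The T cell genes Cd3e, Cd3d and Cd3g reached at most 0.297 FPKM in any library. The 8 T or NK markers summed to 0.535 to 1.10 FPKM in NRASG12D cells, 31.9 to 155 FPKM in NUP98-NSD1 cells and 10.03 to 311 FPKM in cells with both vectors, nearly all of it Nkg7, a granule protein, and their part in the level of Trbv13-2 was not tested.

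**Figure D4:**
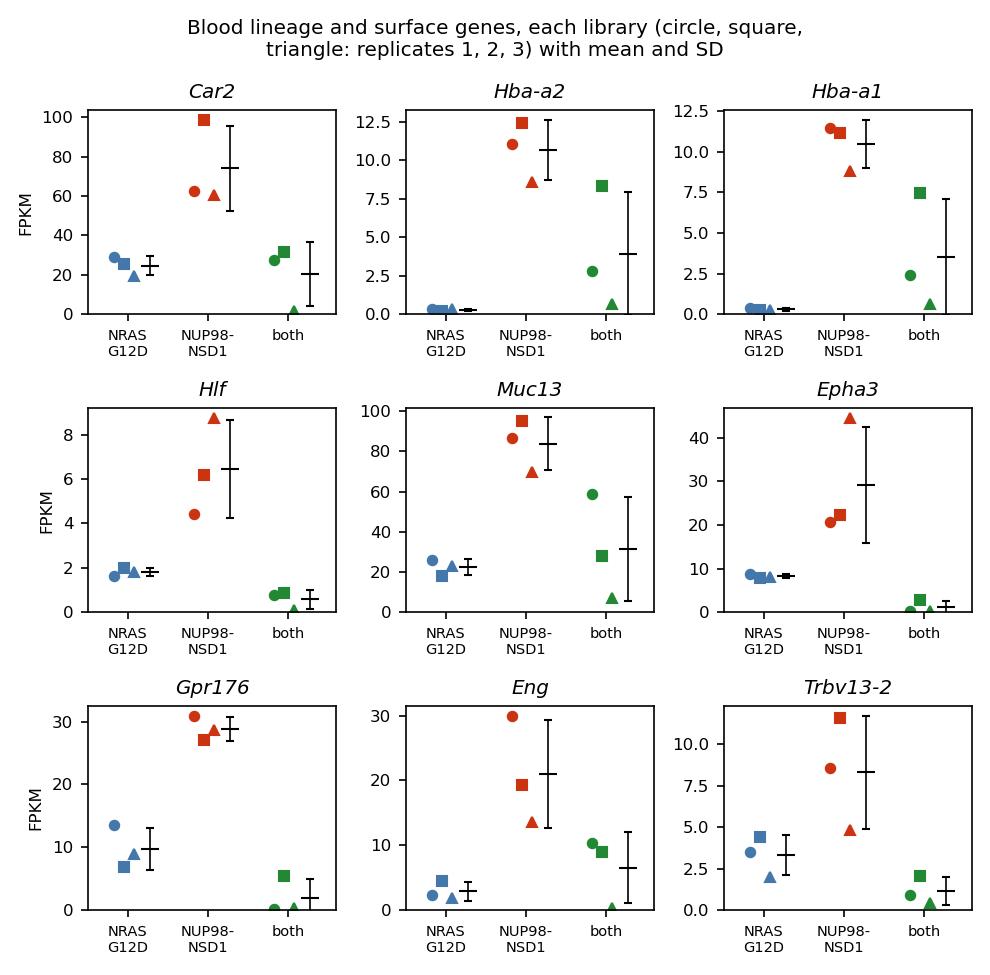
FPKM on a linear axis from 0 of the 4 blood lineage genes and the 5 surface genes with the highest means in NUP98-NSD1. Circles, squares and triangles are replicates 1, 2 and 3, the black bar gives the mean with the SD of 3 libraries, and bars that pass below 0 are not drawn further. Replicate 3 of the cells with both vectors is the lowest of its group in Car2, Hba-a1, Hba-a2, Hlf, Muc13, Eng and Trbv13-2, and NRASG12D has the smallest SD in every panel but Gpr176 and Trbv13-2.

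The remaining 7 genes shared no function. Hmgn3 (chr9:83109948-83146685), a nucleosome-binding protein, was the most abundant with 9.24, 14.4 and 16.8 FPKM in NUP98-NSD1, 2.37, 2.40 and 1.65 FPKM in NRASG12D and 7.16, 5.80 and 0.104 FPKM in NUP98-NSD1+NRASG12D. It shares 9.82% of its stretches of 50 bases with Gm29054 on the other strand. Rarres1 (chr3:67478972-67515523), a membrane protein induced by retinoids, had 10.1, 8.87 and 15.9 FPKM in NUP98-NSD1, 4.32, 6.30 and 3.73 FPKM in NRASG12D and 0.231, 2.93 and 2.09 FPKM in NUP98-NSD1+NRASG12D. Replicate 3 of NUP98-NSD1+NRASG12D was the lowest library of all for Hmgn3, and replicate 1 for Rarres1. Peg12, an imprinted gene expressed from the paternal copy, Dnajc6, the clathrin-uncoating protein auxilin, and Pcbp3, an RNA-binding protein, had means of 4.99, 4.78 and 2.99 FPKM in NUP98-NSD1. Asphd2 had 1.90, 2.61 and 2.49 FPKM in NUP98-NSD1 and 0.0846, 0.0766 and 0.0801 FPKM in NUP98-NSD1+NRASG12D, with 0.947, 0.238 and 0.745 FPKM in NRASG12D. Abca4, a lipid transporter known from photoreceptors, had 2.43, 1.72 and 1.21 FPKM in NUP98-NSD1 and was listed at 0 in replicate 3 of NUP98-NSD1+NRASG12D.

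The genes just inside the threshold were Rarres1, Abca4, Trbv13-2, Asphd2 and Ccl17, with margins of 1.11, 1.10, 1.09, 1.04 and 1.04 on the log2(FPKM + 1) scale. Just outside lay Abcg2, Snhg8, Jun, Xlr and Dynll2 with margins of 0.93, 0.92, 0.91, 0.89 and 0.87. Ccl24, Cd27, Prss34, Rps4l and Tmem176b had margins of 2.04, 1.74, 1.71, 1.63 and 1.49 but overlapped between groups. Mast cell proteases were among the 17 genes set aside by name, with Mcpt4 at a mean of 440.3 ± 43.8 FPKM (SD, n = 3) in NUP98-NSD1 and 75.1 and 15.6 FPKM in NRASG12D and NUP98-NSD1+NRASG12D.

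The 27 genes differed most among replicates in NUP98-NSD1+NRASG12D. The range between the highest and the lowest of its 3 libraries had a median of 1.10 on the log2(FPKM + 1) scale over the 27 genes and of 0.64 over all tested genes. It was 2.43 for the 4 blood lineage genes, 1.62 for the 7 surface genes, 0.99 for the 7 others and 0.72 for the 9 inducible genes. In NUP98-NSD1 the median range over the 27 genes was 0.46, where all tested genes had 0.30, and in NRASG12D it was 0.49, where all tested genes had 0.23. Replicate 3 of NUP98-NSD1+NRASG12D was the lowest of its group in all 4 blood lineage genes and in 3 of the 9 inducible genes. Hba-a1 and Hba-a2, counted here as separate genes, share most of their sequence. Replicate 1 was the highest in 13 of the 27 genes, where 52.4% of all tested genes had replicate 1 highest. Replicate 2 was also the highest in 13, and its share over all tested genes was not counted. No NUP98-NSD1 library held the highest value in more than 11 of the 27 genes. The values behind these ranges and counts also chose the genes.

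NUP98-NSD1+NRASG12D was compared with NRASG12D because the choice of genes used neither library set against the other, although it capped both below NUP98-NSD1. With p-values from limma, adjusted by Benjamini and Hochberg's method for the 13493 genes, 1 of the 27 genes was higher in NUP98-NSD1+NRASG12D, 6 were lower and 20 did not pass an adjusted p of 0.05. Of all tested genes, 24.2% were higher and 14.1% lower, 38.3% in all. The median difference of all tested genes was 0.23, and that of the 27 genes was -0.02. The split of all tested genes moved with the scaling, from 3266 higher and 1907 lower to 2773 and 2449 after median-ratio scaling and 2155 and 3064 after quantile normalization. For 9 of the 27 genes fewer than 3 of these 6 libraries reached 1 FPKM, so they passed the filter through NUP98-NSD1, and none of the 9 was called by limma. Abca4, Asphd2, Ccl17, Gpr149 and P2ry10 stayed below 1 FPKM in all 6. The 7 calls were among the other 18 genes. The libraries of the groups did not overlap in 11 of the 27 genes, against 58.6% of all tested genes. This count includes the 9 genes that passed the filter through NUP98-NSD1, with Hba-a1, Hba-a2 and Asphd2 among the 11.

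Btg2 rose, by 2.21 ± 0.22 on the log2 scale (SE, adjusted p = 0.000493), and passed the threshold in each of 14 alternatives. Epha3 fell by 2.36 ± 0.43 (adjusted p = 0.00588) and Ier2 fell by 1.47 ± 0.25 (adjusted p = 0.00428), also in each of 14 alternatives. Gpr176 fell by 2.28 ± 0.65 (adjusted p = 0.0323, past the threshold in 8 of 14 alternatives) and Junb fell by 0.61 ± 0.18 (adjusted p = 0.0335, in 9 of 14). Hlf fell by 0.87 ± 0.24 (adjusted p = 0.0278, in 8 of 13) and Trbv13-2 fell by 1.05 ± 0.34 (adjusted p = 0.0476, in 6 of 13), the only one of these whose groups overlapped. Without NRASG12D replicate 1 or 3, 2 genes were called lower, and without replicate 2, 3 were. Leaving out replicate 3 of NUP98-NSD1+NRASG12D raised the number of higher calls to 5, adding Hba-a2, Hba-a1, Eng and Hmgn3 with differences of 2.201, 2.05, 1.51 and 1.25. The calls of Hba-a2 and Hba-a1 are uncertain as separate calls, since these genes share most of their sequence.

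By role, 1 of the 9 inducible genes was higher and 2 were lower, beside 24.2% higher and 14.1% lower of all tested genes. No role was tested against these shares. None of the 4 blood lineage genes was higher by limma and 1 was lower, and none of the 7 surface genes was higher and 3 were lower. None of the 7 others passed, and Abca4, Asphd2, Dnajc6 and Pcbp3 among them had passed the filter through NUP98-NSD1. The same held for Ccl17 of the inducible genes, Hba-a1 and Hba-a2 of the blood lineage genes and Gpr149 and P2ry10 of the surface genes. Hba-a2 and Hba-a1 differed by 1.59 ± 0.56 and 1.48 ± 0.54 (adjusted p = 0.0619 and 0.0669), with all 3 NUP98-NSD1+NRASG12D libraries above all NRASG12D libraries. Nr4a1, Asphd2 and Rarres1 differed by -0.64 ± 0.23, -0.58 ± 0.21 and -1.21 ± 0.44 (adjusted p = 0.0611, 0.0636 and 0.0660), and their groups did not overlap either. Eng differed by 0.53 ± 0.79 and Car2 by -0.87 ± 0.88, with errors as large as the differences.

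**Figure D5:**
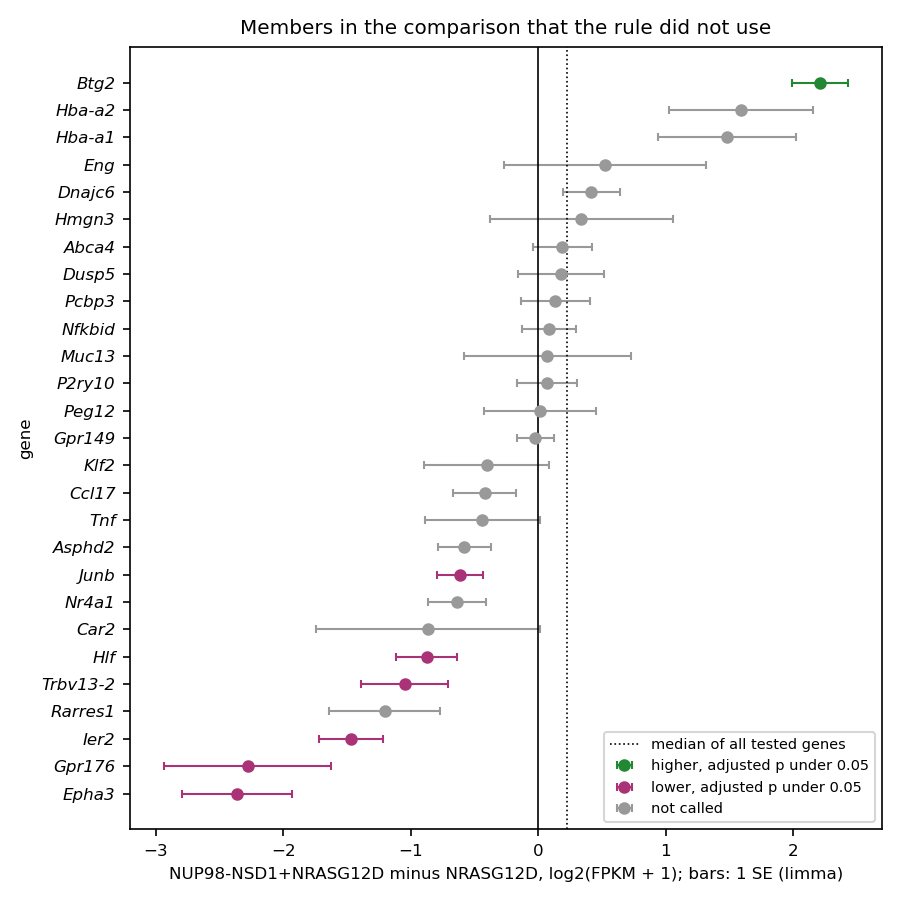
Difference between NUP98-NSD1+NRASG12D and NRASG12D on the log2(FPKM + 1) scale for the 27 genes, with bars of 1 SE from limma over 3 and 3 libraries. Colour marks the call at an adjusted p under 0.05, and the dotted line is the median of all tested genes, 0.23. Btg2 stands alone among the higher calls, and Epha3, Gpr176, Ier2, Trbv13-2, Hlf and Junb are the 6 lower calls.

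The immediate-early list held calls in both directions in the same comparison. Of its 44 tested genes, 11 were higher and 11 lower in NUP98-NSD1+NRASG12D than in NRASG12D, with a median difference of -0.27, beside 24.2% higher, 14.1% lower and a median of 0.23 for all tested genes. Fos rose with Btg2, by 2.73 (adjusted p = 0.000623 by limma), while Jun fell by 0.87 (adjusted p = 0.00969) and Egr1 fell by 3.46 (adjusted p = 0.000181) as did Ier2 and Junb. Zfp36, an RNA decay factor, and Dusp1, a phosphatase of MAP kinases, rose by 2.82 and 3.06 (adjusted p = 0.000315 and 0.00131). Among the lists of cell markers, 12 of 15 tested mast cell genes and 6 of 8 tested stem or progenitor genes were lower, the last including Hlf, and 13 of 15 neutrophil genes and 11 of 12 monocyte or macrophage genes were higher. Of the 7 tested erythroid genes, 0 were higher and 2, Epor and Gata1, were lower by limma. Of the other marker lists, 2 of 7 basophil genes were higher and 4 lower, 3 of 6 eosinophil genes higher and 1 lower, 2 of 6 megakaryocyte genes higher and 3 lower, 2 of 2 T or NK genes higher, 1 of 2 stromal or endothelial genes lower, and neither the 1 B lineage nor the 1 dendritic gene tested was called by limma.

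None of the 27 genes was on the 7 pathway lists of mast cell and signalling genes. These lists do not cover whole families. The axon guidance list held other Eph receptors but not Epha3, and the mast cell cytokine list did not hold Tnf. The absence therefore depends on how the lists were written. For comparison, 24.2% of all tested genes were higher and 14.1% lower. In NUP98-NSD1+NRASG12D against NRASG12D, 3 of 25 tested genes of IgE receptor signalling were higher and 14 lower, and 0 of 14 type 2 and mast cell cytokine and receptor genes were higher and 13 lower by limma. Cyclic nucleotide signalling had 2 of 19 genes higher and 11 lower, and calcium and potassium channels 1 of 17 higher and 9 lower. Prostaglandin and leukotriene synthesis had 5 of 11 higher and 4 lower, axon guidance 6 of 10 higher and 3 lower, and receptor-type phosphatases 1 of 8 higher and 1 lower. Among families of the 27 genes, listed after these were known, 0 of 3 Eph receptors were higher and 2 lower by limma, Epha3 and Epha5, and of 7 carbonic anhydrases 0 were higher and 4 lower, not including Car2. Of 7 TGF-beta and BMP receptors 1 was higher and 4 were lower, not including Eng, of 9 TNF superfamily ligands 1 was higher and 4 were lower, not including Tnf, and of the 4 PAR bZIP factors 1 was higher and 2 were lower, one of them Hlf.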

How the data were processed

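The 9 RNA libraries from cultured mouse bone marrow cells, 3 per group by the sample labels, were sequenced as paired reads of 50 bases. The authors aligned the reads to GRCm38 with GENCODE M22, mainly by STAR with a check by Bowtie2, and quantified genes with TopHat and Cufflinks. The submitters' processing notes name STAR 2.7.2a, Cufflinks 2.2.1 and GRCm38.p6. The deposited values are FPKM per gene, with no further scaling between libraries stated, and how reads with several alignments and strand were handled is not given in the sources used here. The authors' DESeq2 tests on counts were not repeated, since FPKM are not counts.

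The 27 genes, their roles and all gene lists were chosen with earlier results of these data known. FPKM were summed per identifier, and log2(FPKM + 1) was fitted for the 6 libraries of NUP98-NSD1+NRASG12D and NRASG12D with limma 3.58.1 in R 4.3.3 (eBayes with trend, Benjamini-Hochberg adjustment), without a block. The comparisons with NUP98-NSD1 chose the genes and were not tested. Fold changes on this scale understate changes of low genes. Of the alternatives tried, 14 bear on the tested comparison, and 13 for genes that the stricter filter removed. The script was tested on simulated data. No pairing of replicates is given by the labels and none was used.

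Depth was estimated from 3386 genes with a single transcript over 2500 bp, and 83.2% to 86.6% of low values fell within 0.1 of a whole fragment. The level of 3 fragments covers counting error only. Coordinates are the files', on GRCm38, with starts shifted to count from 1. Shared stretches were counted in GENCODE M21 transcripts. RefSeq promoters were matched by symbol, chromosome and strand, and the motifs TGCGTCA and CArG box were added after the genes were known. Genes are named by fixed rules (label checks, list members, the 15 highest and the 15 with the widest margin, neighbours of the threshold, calls, zeros, families and neighbours), and further members by role. Other listed genes were picked after their values were seen. Plots were drawn with matplotlib 3.10.9.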

Additional observations from a re-analysis of the deposited data

How the results depend on the processing

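The number of genes highest in NUP98-NSD1 alone, 27, was 43 with a pseudocount of 0.1 (all 27 among them), 17 with a minimum of 5 FPKM, 44 with all names kept (an alternative chosen after seeing the data) and 21 to 65 without 1 library, 65 without NUP98-NSD1+NRASG12D replicate 1 and 46 without NUP98-NSD1 replicate 3. Median-ratio scaling gave 21 genes, 20 of them shared, and quantile normalization 19, 17 of them shared. The count of genes higher in NUP98-NSD1+NRASG12D than in NRASG12D, 1, was 3 with a pseudocount of 0.1, 3 in the fit of all 9 libraries, 3 with the replicate block and 1 to 5 without 1 library. The count of lower genes, 6, was 2 without a filter, 10 after quantile normalization, 6 with the replicate block and 2 to 7 without 1 library. Deviations from the group means of libraries with the same number correlated by 0.0456, 0.0613 and -0.059, and not every library correlated best with its own number, so the number was not taken as a pairing. With the block Junb lost its call (adjusted p = 0.0873 by limma), and Rarres1, Hba-a1 and Hba-a2 gained one (adjusted p = 0.0343, 0.0416 and 0.0427 by limma). Over all tested genes, 3266 higher and 1907 lower calls became 1911 and 1960 without a filter, 2155 and 3064 after quantile normalization, 2873 and 1658 with the replicate block, and 1727 to 4202 higher and 1214 to 2125 lower without 1 library, the lowest without NRASG12D replicate 3. The cause of these moves was not tested.

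Directions turned only in genes that did not pass the threshold. With array weights the log2 difference became -0.59 for Eng, -0.71 for Hmgn3, -0.85 for Muc13, -0.58 for Peg12, -0.18 for P2ry10, -0.16 for Pcbp3 and -0.0330 for Abca4. With a pseudocount of 0.1 it became -0.10 for Hmgn3, -0.30 for Peg12 and -0.0219 for P2ry10. Median-ratio scaling gave -0.12 for Muc13, -0.12 for Peg12 and -0.0929 for Nfkbid. Quantile normalization gave -0.21 for Muc13, -0.15 for Peg12, -0.23 for P2ry10, -0.17 for Nfkbid, -0.11 for Pcbp3, -0.0694 for Dusp5 and -0.17 for Abca4. Without 1 library the difference ranged from -0.0162 to 1.51 for Eng, -0.19 to 1.25 for Hmgn3, -0.58 to 0.85 for Muc13, -0.76 to 0.11 for Tnf, -1.48 to 0.27 for Car2, -0.0537 to 0.0162 for Gpr149, -0.90 to 0.10 for Klf2, -0.43 to 0.51 for Peg12, -0.0777 to 0.29 for P2ry10, -0.0751 to 0.22 for Nfkbid, -0.10 to 0.39 for Pcbp3, -0.16 to 0.46 for Dusp5 and -0.0291 to 0.37 for Abca4. Over all alternatives, 279 values kept direction and call, 25 newly passed the threshold, 23 no longer passed it and 41 reversed. Among the 27 genes the standard errors were largest for Car2 and Eng, at 0.88 and 0.79.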
